A study of Mus musculus with 8 samples.

Results

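Neuropeptide genes were compared between control and Bcl11a mutant mouse neocortex. The set holds 10 genes chosen by symbol, Npy, Sst, Cck, Vip, Penk, Pdyn, Tac1, Grp, Adcyap1 and Crh, of the 19938 genes on the array with a probe set of their own. Each member had exactly 1 such probe set, so all 10 were measured. Tissue of layers II to IV was cut with a laser from frozen neocortex at postnatal day 2, and RNA of each pup was hybridised to an Affymetrix GeneChip Mouse Gene 1.0 ST array. The 4 control pups were Bcl11a flox/+;Emx1 IRESCre/+ and the 4 mutant pups Bcl11a flox/flox;Emx1 IRESCre/+. All 8 pups therefore carried Cre recombinase in the Emx1 locus, and the controls were heterozygous for Bcl11a wherever Cre had acted. No pup had both Bcl11a alleles intact in those cells. The labels give each pup as a separate sample and name neither sex nor litter.

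Neuropeptides are short signalling peptides cut from larger precursor proteins in the secretory pathway, stored in dense-core vesicles and released to act on G protein-coupled receptors. In the neocortex many of them mark classes of inhibitory interneurons: somatostatin and neuropeptide Y are typical of cells from the medial ganglionic eminence, and vasoactive intestinal peptide of cells from the caudal eminence. Others, among them gastrin-releasing peptide and PACAP, are made by projection neurons. Emx1-driven Cre acts in the progenitors of cortical excitatory neurons and of part of the glia, whereas interneurons arise elsewhere and migrate in.

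In the mutant tissue 1 of the 10 genes rose and 2 fell, by limma with Benjamini-Hochberg adjustment over all 19938 genes (adjusted p under 0.05). Over all genes tested 2.36% rose and 1.79% fell, 4.15% in all. The 10 genes were chosen with earlier results of these data known, so these shares are background and no test of the set. Npy fell most, Grp rose, Adcyap1 fell by a smaller amount, and the other 7 did not pass. Npy, Grp and Adcyap1 were also the 3 members with every mutant on 1 side of all controls, as were 9.25% of all genes. The median log2 difference (mutant minus control) of the 10 genes was -0.05, against 0.02 over all genes. Values in the text are log2 expression levels unless called a difference. A level of 1 gene cannot be set against that of another, since each has its own probes.

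**Figure D1:**
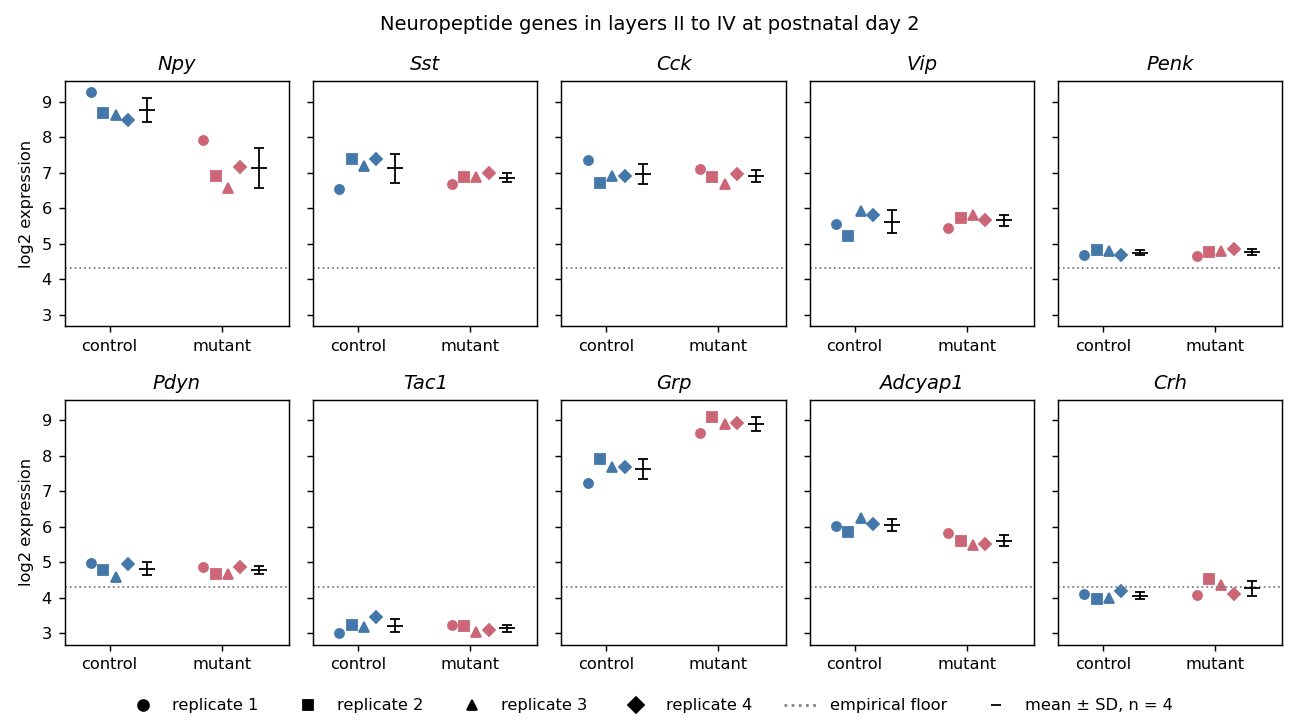
Log2 expression of the 10 neuropeptide genes in each of the 4 control (blue) and 4 mutant (red) arrays, with mean ± SD beside the points and the empirical floor of 4.31 as a dotted line. The groups are apart for Npy, Grp and Adcyap1, and all 8 Tac1 values lie below the floor.

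Bcl11a encodes a DNA-binding transcription factor, and the stretches of 250 bases just before the start site of Npy, Adcyap1 and Sst are shown first. Npy and Adcyap1 were the members that fell, and Sst is the other member named above for cells from the medial ganglionic eminence. The sequences are those of RefSeq on GRCm38.p6, read 5′ to 3′ on the strand of the gene. Capitals mark TGACG on either strand, the half-site of the cyclic AMP response element for which several peptide genes are known. The windows lie at chr6:49822460-49822709 (plus strand, Npy), chr17:93198767-93199016 (plus strand, Adcyap1, the upstream of 2 listed start sites) and chr16:23890845-23891094 (minus strand, Sst).
Npy: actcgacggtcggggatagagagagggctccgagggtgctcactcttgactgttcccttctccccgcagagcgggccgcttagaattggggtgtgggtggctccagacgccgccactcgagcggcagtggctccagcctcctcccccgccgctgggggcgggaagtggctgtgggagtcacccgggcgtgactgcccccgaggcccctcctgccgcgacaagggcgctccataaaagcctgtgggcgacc
Adcyap1: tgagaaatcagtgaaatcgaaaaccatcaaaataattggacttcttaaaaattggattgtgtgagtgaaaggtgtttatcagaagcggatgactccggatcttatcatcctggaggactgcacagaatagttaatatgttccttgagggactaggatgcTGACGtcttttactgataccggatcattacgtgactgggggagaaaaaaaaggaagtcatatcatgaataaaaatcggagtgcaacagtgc
Sst: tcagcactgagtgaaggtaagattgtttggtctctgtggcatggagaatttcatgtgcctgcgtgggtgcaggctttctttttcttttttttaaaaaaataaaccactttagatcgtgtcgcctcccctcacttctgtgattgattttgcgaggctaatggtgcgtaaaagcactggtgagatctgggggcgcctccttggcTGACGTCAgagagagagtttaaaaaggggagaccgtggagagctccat

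RefSeq windows were matched for 7 of the 10 genes, all but Grp, Penk and Crh. The half-site TGACG was present, on either strand, in at least 1 window of 5 of these 7 genes (Sst, Tac1, Cck, Vip and Adcyap1) and in neither Npy nor Pdyn. Of all 32851 windows of this length, 17.8% held it. The Sst window alone among the members held the whole palindrome TGACGTCA, 48 bases before the start and found in 1.55% of all windows, in which both half-sites overlap. TGACCA, the sequence for which Bcl11a is known, occurred on neither strand in the windows of the 7 genes, against 11.4% of all windows. TTCCTNGAA, a core of the Bcl6 motif, likewise had 0 matches in them, against 1.31% of all windows. In G and C content the Npy window stood at 69.2%, the Sst window at 47.2% and the upstream Adcyap1 window at 39.6%, beside a median of 52.4% over all windows. A match or its absence describes these letters and says nothing of binding.

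Bcl11a, the deleted transcription factor gene, read 10.34 to 10.59 in the controls and 8.37 to 8.85 in the mutants, a difference of -1.82 (SE 0.10, adjusted p = 4.9e-07, limma). Bcl6, a zinc-finger repressor gene, differed by -1.82 as well. The array of control 1 stood apart from the other controls. Its median absolute deviation from the rest of its group was 0.105, against 0.0803 to 0.0924 for the other 7 arrays, and its array weight was 0.556, the lowest. Mutant 1 came next on both measures (0.0924 and 0.794), and the fits without control 1 kept it. High Xist marked 2 control arrays and 1 mutant array as female. Y-linked genes (3 measured) reached at most 4.31 on those 3 arrays, and readings up to this value, called the floor here, cannot be told from background. In these bulk samples fewer cells of a type and less RNA per cell cannot be told apart.

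Npy, which encodes neuropeptide Y, an inhibitory peptide of cortical interneurons, fell 3.09-fold. It read 9.27, 8.67, 8.62 and 8.49 in controls 1 to 4 and 7.91, 6.90, 6.58 and 7.15 in mutants 1 to 4. Every mutant lay below every control, and the mutants spread more widely, with mutant 1 nearest to the controls. The means were 8.76 ± 0.35 and 7.14 ± 0.57 (SD, n = 4). The log2 difference was -1.63 (SE 0.23, 95% interval -2.13 to -1.12, adjusted p = 0.000939, limma), which is a 2.18- to 4.38-fold drop. The exact two-sided permutation p was 0.0286, the smallest that 4 arrays against 4 can give. With any 1 array left out the difference stayed between -1.88 and -1.44 (adjusted p at most 0.00584). Without moderation of the variances the adjusted p was 0.0989.

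Sst, which encodes somatostatin, a peptide that dampens neuronal firing and hormone release, did not pass the test, and its value rested on control 1. It read 6.54, 7.39, 7.18 and 7.40 in controls 1 to 4 and 6.70, 6.89, 6.87 and 7.0 in mutants 1 to 4. Control 1 was the lowest of all 8 arrays, and the other 3 controls lay above all 4 mutants. The difference was -0.26 (SE 0.16, 95% interval -0.60 to 0.07, adjusted p = 0.521, limma). Without control 1 the difference was -0.46 (SE 0.09, 95% interval -0.64 to -0.27, adjusted p = 0.00726, limma), which passes. Without control 1, then, 1 member rose and 3 fell, against 2.2% and 1.89% of all genes (4.08% in all). With any other array left out Sst did not pass, with adjusted p up to 0.767.

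**Figure D2:**
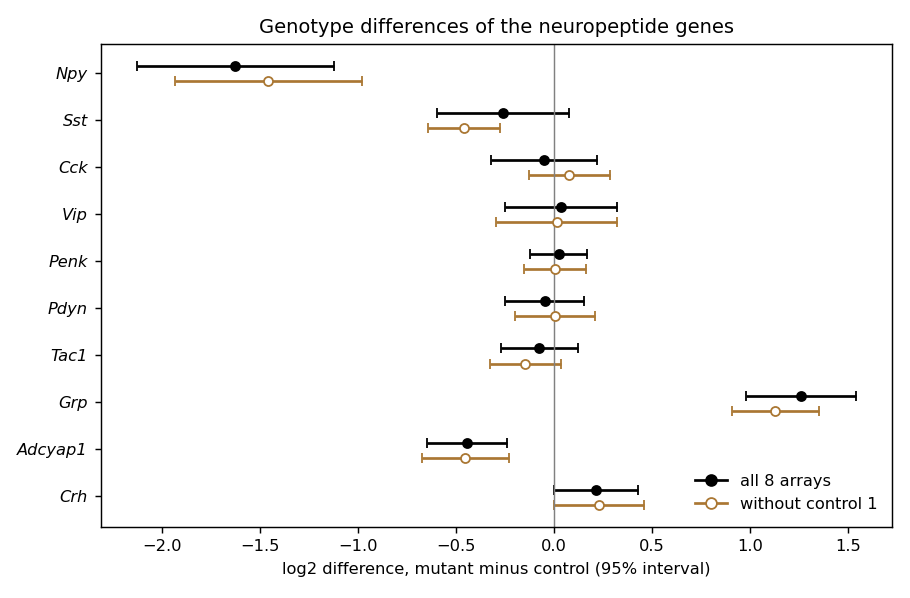
Log2 difference (mutant minus control) of each gene with its 95% interval from limma, with all 8 arrays (filled) and without control 1 (open). The intervals of Npy, Grp and Adcyap1 exclude 0 in both fits, that of Sst excludes 0 only without control 1, and that of Crh, with its lower end at 0.0009, only with all 8 arrays.

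The change of Npy was set against that of the inhibitory neurons as a whole. Gad1 and Gad2, the enzymes that make GABA, and Slc32a1, which loads it into vesicles, differed by -0.20, -0.22 and -0.16 (adjusted p = 0.289, 0.163 and 0.222, limma). By limma 0 of these 3 passed over all genes, although all 3 had an unadjusted p under 0.05. Their mean was 6.89, 7.0, 7.02 and 7.03 in controls 1 to 4 and 6.81, 6.80, 6.75 and 6.79 in mutants 1 to 4. The groups did not overlap (difference -0.20, exact permutation p = 0.0286).

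Taken relative to that mean within each array, Npy was 2.38, 1.68, 1.6 and 1.46 in the controls and 1.10, 0.09, -0.17 and 0.36 in the mutants. Every mutant again lay below every control. The relative difference was -1.43 (SE 0.22, adjusted p = 0.000565, limma on the relative values of all genes), and 1.03% of all genes were called lower on this scale. The scale moved the median difference of all genes to 0.21, and 51% of them were called higher, so calls in that direction are not read. Relative to the same markers Sst differed by -0.07 (95% interval -0.35 to 0.22, adjusted p = 0.655) and by -0.23 without control 1 (adjusted p = 0.0312). Adcyap1 differed by -0.25 (95% interval -0.45 to -0.05, adjusted p = 0.0379), and its groups overlapped on this scale. That call was lost without control 3 or 4 or without mutant 2, 3 or 4 (adjusted p from 0.0682 to 0.115).

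Npy minus Sst, the log2 reading of Npy less that of Sst within an array, was 2.73, 1.28, 1.43 and 1.09 in controls 1 to 4. Since each gene has its own probes, only the change of this value between genotypes is read. Npy minus Sst was 1.21, 0.01, -0.29 and 0.15 in mutants 1 to 4. This value was lower in 3 mutants than in any control, and mutant 1 lay within the control range. Each mutant lay below the control of its own number, a pairing that the test did not use. The difference between genotypes of -1.36 did not pass (exact two-sided permutation p = 0.0571). It passed without mutant 1 (-1.68, exact permutation p = 0.0286) and ranged from -1.68 to -1.0 with each array left out.

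**Figure D3:**
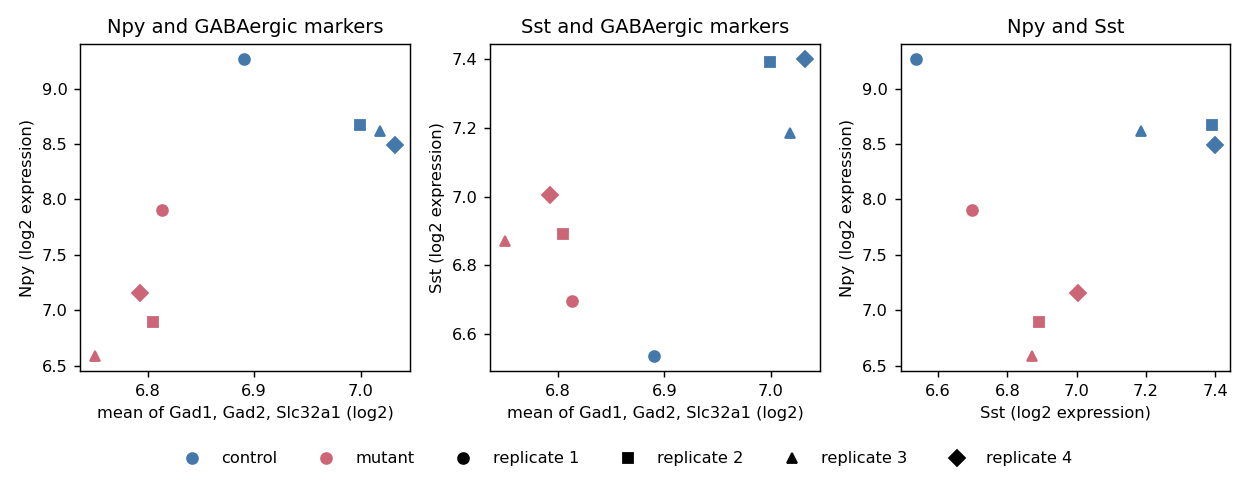
Log2 levels on each array of Npy against the mean of Gad1, Gad2 and Slc32a1, of Sst against the same mean, and of Npy against Sst, with controls in blue, mutants in red and a symbol for each replicate number. Control 1 has the highest Npy and the lowest Sst of the 8 arrays, and all mutants lie below all controls in Npy.

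In 3 lists of interneuron genes most differences were below 0, and few passed. Below 0 were 7 of 8 genes of all cortical interneurons, 9 of 11 of the medial eminence and 8 of 11 of the caudal eminence. Over all 19938 genes 8480 were below 0, and 1.79% fell by the test. In lists of other cells 8 of 11 glial and 10 of 15 microglial, vascular and meningeal genes were below 0. So were 7 of 11 upper-layer, 5 of 8 subplate, 4 of 11 striatal and 2 of 13 deep-layer genes. The lean below 0 was thus not particular to interneuron genes. Of 8 measured genes of all cortical interneurons, which include the 3 GABAergic markers above, 1 fell, 0 rose and 7 did not pass, with a median difference of -0.20. Dlx1, a homeobox gene of inhibitory neurons, fell from 8.74 ± 0.07 to 8.28 ± 0.11 (SD, n = 4, adjusted p = 0.0019, limma). Of 11 genes of cells from the medial eminence, 1 fell, 0 rose and 10 did not pass (median -0.07). The gene that fell was the neurexin ligand gene Nxph1 (-0.31, adjusted p = 0.0323), and it lost its call without any 1 array other than control 1 (adjusted p from 0.0508 to 0.108). With the probe sets of a gene averaged Nxph1 differed by -0.18 and did not pass (adjusted p = 0.187), and the list's lower count ranged from 0 to 3 over the alternatives. Lhx6, the homeobox gene that specifies these cells, read 7.90 to 8.14 in the controls and 7.67 to 7.82 in the mutants (difference -0.24, adjusted p = 0.081). Of 11 genes of cells from the caudal eminence, 1 fell, 0 rose and 10 did not pass (median -0.09). Reln, the secreted glycoprotein reelin, fell by 0.57 on the log2 scale (adjusted p = 0.0279). Its groups overlapped, with control 1 at 7.84 and mutant 1 at 7.88 (exact permutation p = 0.0571). Leaving out control 2, 3 or 4, or mutant 2 or 3, ended the call of Reln (0.0702 to 0.101). Without variance moderation neither Nxph1 (0.146) nor Reln (0.255) passed. Calb2, which encodes calretinin, had the largest difference of this list, 0.86, with every mutant above every control, and did not pass (adjusted p = 0.122). Without control 1 this list had 3 lower and 1 higher, the latter Calb2 (0.48, adjusted p = 0.0157). Prox1, a homeobox gene of caudal eminence cells, differed by -0.03 (adjusted p = 0.914). The part of these shifts in the fall of Npy was not tested beyond the relative values above.

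Cck and Vip, the peptide genes of other interneuron classes, did not pass, and their groups overlapped. Cck encodes cholecystokinin, which pyramidal cells also make. It read 7.36, 6.71, 6.90 and 6.90 in controls 1 to 4 and 7.11, 6.88, 6.69 and 6.97 in mutants 1 to 4. Control 1 was the highest array, and without it the difference changed from -0.05 (95% interval -0.32 to 0.22) to 0.08 (95% interval -0.13 to 0.28), passing in neither case (adjusted p = 0.924 and 0.791, limma). Vip, for vasoactive intestinal peptide, read 5.56, 5.21, 5.93 and 5.81 in the controls and 5.46, 5.74, 5.80 and 5.66 in the mutants. All mutants lay within the range of the controls, and the difference was 0.04 (95% interval -0.25 to 0.32, adjusted p = 0.954, limma).

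The opioid and tachykinin precursors, best known from striatal neurons, read not far above the floor (Penk and Pdyn) or below it (Tac1). Penk, the precursor of the enkephalins, read 4.68 to 4.83 in the controls and 4.66 to 4.87 in the mutants. Its groups overlapped almost fully, with a difference of 0.02 (95% interval -0.12 to 0.17, adjusted p = 0.939, limma). Pdyn, the precursor of the dynorphins, read 4.58 to 4.98 in the controls and 4.68 to 4.88 in the mutants, a difference of -0.05 (95% interval -0.25 to 0.15, adjusted p = 0.904, limma). Tac1, the precursor of substance P, read 3.0 to 3.45 in the controls and 3.04 to 3.24 in the mutants, below the floor on all 8 arrays, so no fold is given. In the same arrays 1 of 11 striatal genes rose, the retinoic acid receptor gene Rarb (4.78 ± 0.10 to 5.52 ± 0.15, SD, n = 4, difference 0.74, adjusted p = 0.000148, limma), 0 fell and 10 did not pass. The control readings of Rarb were also not far above the floor. The striatal dopamine receptor genes Drd1 and Drd2 differed by -0.09 and 0.11 (adjusted p = 0.79 and 0.694, limma).

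Grp, which encodes gastrin-releasing peptide, a bombesin-like peptide that excites neurons bearing its receptor, rose 2.40-fold. It read 7.23, 7.92, 7.69 and 7.67 in controls 1 to 4 and 8.64, 9.10, 8.90 and 8.92 in mutants 1 to 4. Every mutant lay above every control. The means were 7.63 ± 0.29 and 8.89 ± 0.19 (SD, n = 4). The log2 difference was 1.26 (SE 0.13, 95% interval 0.98 to 1.54, adjusted p = 8.02e-05, limma), a 1.97- to 2.91-fold rise, with an exact permutation p of 0.0286. With each array left out it ranged from 1.13 to 1.36 (adjusted p at most 0.000716), the lowest without control 1.

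Grp is also known as a gene of deep-layer projection neurons, and other such genes were higher in the same arrays. Besides Grp, 13 deep-layer genes were on the array, of which 4 rose, 1 fell and 8 did not pass, with a median difference of 0.18. Of all genes 2.36% rose and 1.79% fell. Ldb2, a LIM-domain-binding cofactor (1.38), Crim1, a transmembrane protein of corticospinal neurons (1.07), and Pcp4, a calmodulin-binding protein (0.95), rose. Ntsr1, a neurotensin receptor of layer VI, fell (-0.90). The mean level of the 13 genes was 7.19, 7.54, 7.53 and 7.61 in controls 1 to 4 and ranged from 7.79 to 7.89 in the mutants. Control 1, which had the lowest Grp, also had the lowest mean of this list, and its Ldb2 reading was 8.29 against 9.58 to 9.74 in the other controls. Of 11 upper-layer genes, 5 fell, 0 rose and 6 did not pass (median -0.27), with Cux2, a homeobox gene (-1.29), and Mdga1, which encodes a cell-surface adhesion protein (-1.07), falling most. The subplate list had 1 gene lower of 8, Nr4a2, a nuclear receptor (-2.15). Nr4a2 spread widely in the controls, at 5.85, 8.15, 6.43 and 6.92 in controls 1 to 4. In the mutants it read 4.47 to 4.82, not far above the floor. Of 11 glial and 15 microglial, vascular and meningeal genes 0 passed by limma, with 3 of each list below an unadjusted p of 0.05, all lower. The median differences of these lists were -0.17 and -0.08. Without control 1, 1 glial gene passed as lower, Gfap. The part of these shifts in the rise of Grp was not tested.

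Adcyap1 encodes PACAP, a peptide that raises cyclic AMP in its target cells, and fell 1.36-fold. It read 6.03, 5.86, 6.24 and 6.08 in controls 1 to 4 and 5.83, 5.59, 5.49 and 5.52 in mutants 1 to 4. No mutant reached the lowest control, although mutant 1, at 5.83, lay just under control 2, at 5.86. The means were 6.05 ± 0.16 and 5.61 ± 0.16 (SD, n = 4). The log2 difference was -0.44 (SE 0.09, 95% interval -0.65 to -0.24, adjusted p = 0.0151, limma), with an exact permutation p of 0.0286. The call was lost without mutant 2, 3 or 4 (adjusted p = 0.052, 0.0562 and 0.0594) and without variance moderation (0.164).

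Crh, for corticotropin-releasing hormone, the peptide that starts the stress hormone cascade and is also found in cortical interneurons, read at or below the floor on 6 of 8 arrays. It was 4.12, 3.96, 4.0 and 4.19 in the controls and 4.09, 4.53, 4.37 and 4.11 in the mutants. Only mutants 2 and 3 lay above the floor, and the groups overlapped. The difference of 0.21 (95% interval 0.0009 to 0.43) had an unadjusted p of 0.0492 and did not pass after adjustment (adjusted p = 0.354, limma).

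**Figure D4:**
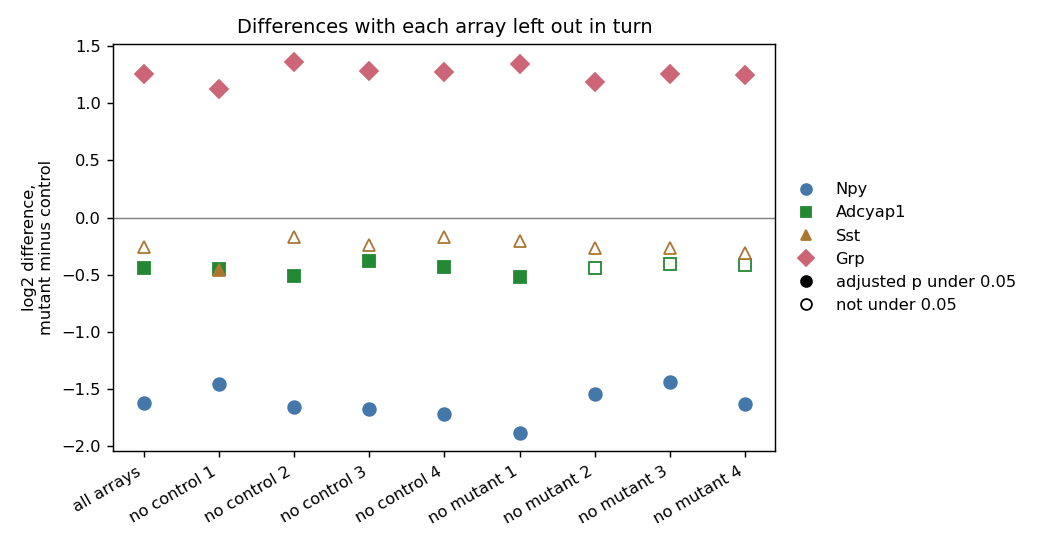
Log2 difference (mutant minus control) of Npy, Adcyap1, Sst and Grp with all arrays and with each array left out in turn, filled where the adjusted p was under 0.05. Npy and Grp stay filled throughout, Adcyap1 is open without mutant 2, 3 or 4, and Sst is filled only without control 1.

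Beyond these 10, the array held 43 of 46 listed genes of other peptide precursors, and none of them passed the test. Of all genes 4.15% passed in either direction, and 0 of 43 is not far from that share. By limma 0 of the 43 passed, 3 had an unadjusted p under 0.05, and 0 passed with ordinary or with trended and robust variances. Of the 43, 20 had a mean at or below the floor. Their differences lay between -0.15 and 0.25, with a median of 0.01. The 3 with an unadjusted p under 0.05 were Pomc, the precursor of melanocortins and endorphin (0.25), Prok2, a prokineticin (0.18), and Npff, an opioid-modulating peptide (0.18), with adjusted p = 0.215, 0.245 and 0.252. These 3 were named after their values had been seen.

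Genes that process peptide precursors and release their vesicles changed in both directions. Among the 20 on the array 4 rose and 2 fell, 14 did not pass, with a median difference of 0.02. The shares over all genes were 2.36% and 1.79%. Cadps2, a priming factor of dense-core vesicles, fell most, reading 7.20, 7.16, 7.40 and 7.19 in controls 1 to 4 and 6.07, 6.43, 6.45 and 6.19 in mutants 1 to 4. The groups were far apart (difference -0.95, SE 0.09, adjusted p = 5.54e-05, limma), and the call held without any 1 array. Its paralogue Cadps differed by 0.22 and did not pass (adjusted p = 0.364). Pcsk6, a proprotein convertase, fell from 5.97 ± 0.15 to 5.52 ± 0.17 (SD, n = 4, adjusted p = 0.0136), and lost its call without mutant 2 (0.0532). Pam, the enzyme that amidates the ends of many peptides, rose from 8.25 ± 0.10 to 8.69 ± 0.15 (SD, n = 4, adjusted p = 0.00751), with the call kept without any 1 array. Without variance moderation neither Pam (0.101) nor Pcsk6 (0.159) passed.

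Scg2, a granin of dense-core vesicles, read 5.46, 6.34, 6.48 and 6.19 in controls 1 to 4 and 6.86, 6.79, 7.14 and 6.72 in mutants 1 to 4. All mutants lay above all controls, with control 1 far the lowest. The difference was 0.76 (adjusted p = 0.0259, limma) and 0.54 without control 1 (adjusted p = 0.00774). The call was lost without control 4 or any 1 mutant (0.0507 to 0.088), with trended and robust variances (0.0669), with inferred sex as a covariate (0.0586) and without variance moderation (0.272). Cpe, the carboxypeptidase that trims cut peptides (0.25, adjusted p = 0.0466), and Pcsk5, a convertase (0.28, adjusted p = 0.0171), also rose, and both were named after their values had been seen. Pcsk5 had means of 4.66 in the controls and 4.94 in the mutants, not far above the floor. Cpe lost its call without any 1 array other than control 4 (0.0853 to 0.114), and Pcsk5 without control 3 (0.0596) or mutant 1 (0.0507). The call of Cpe was also lost with the replicate block (0.059), median centring (0.103), array weights (0.0531) and inferred sex (0.0918), and without variance moderation (0.0731). The count of risers was 2 with inferred sex as a covariate, 1 without variance moderation, and 1 to 3 with each array left out, lowest without mutant 1.

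Of 21 genes of receptors for the peptides of the 10 genes, 3 rose, 1 fell and 17 did not pass. The somatostatin receptor genes Sstr2 (difference 1.58, adjusted p = 9.66e-05) and Sstr3 (0.48, adjusted p = 0.00523) and Tacr1, the receptor of substance P (0.51, adjusted p = 0.0135), rose, and Crhr1, a receptor of corticotropin-releasing hormone (-0.84, adjusted p = 0.000123), fell (limma). Tacr1 lost its call without mutant 4 (0.0543), and without variance moderation Tacr1 (0.176) and Sstr3 (0.0963) did not pass.

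**Figure D5:**
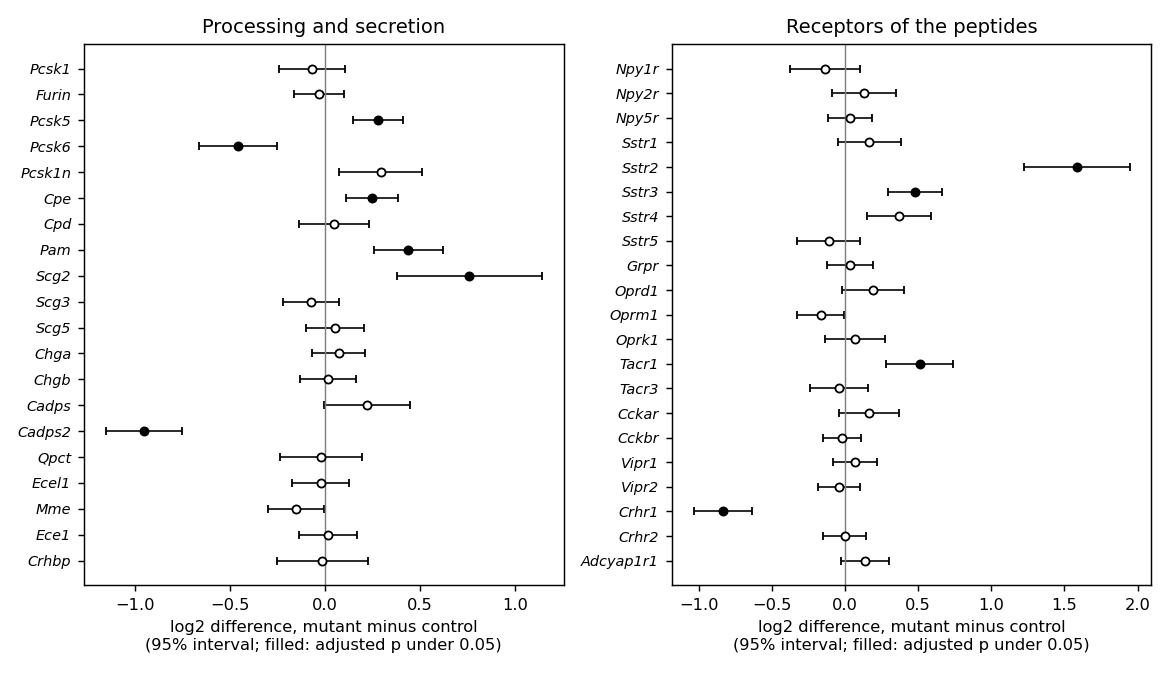
Log2 difference (mutant minus control) with 95% interval from limma for 20 genes of peptide processing and secretion (left) and 21 genes of receptors for the peptides (right), filled where the adjusted p was under 0.05. Cadps2 and Crhr1 lie farthest below 0, and Sstr2 farthest above.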

How the data were processed

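RNA of 8 pups was measured on 1 array each. Per the labels, the authors used BRB-ArrayTools. How they corrected background, normalized and summarised probes is not given in the sources used here. Deposited values (2.03 to 13.85, array medians 4.83 to 4.91) were taken as log2 expression normalized between arrays. With another base the tests would stand and the folds would differ. Of 35556 probe sets, 21789 had 1 gene symbol in the platform annotation, 1621 several and 12146 none. The brightest 1-symbol probe set of each gene gave 19938 genes, with no filter on dim genes. The test of genotype used R 4.3.3 with limma 3.58.1 (lmFit and eBayes on genotype alone, 6.91 prior degrees of freedom, two-sided), adjusted over all genes by Benjamini-Hochberg. Single values also had the exact permutation test over 70 splits. The script was tested on simulated data. The members and lists were chosen with earlier results of these data known. The text names, by rule, the members, Bcl11a and Bcl6, fixed interneuron markers, and up to 4 called genes per list. Alternatives covered scaling, dim genes, probe sets, variances, array weights, sex, the replicate block and each array left out. The number of arrays limits the precision (median SE 0.0766).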

Additional observations from a re-analysis of the deposited data

Results flagged for a closer look

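Among 76 groups of 4 arrays (38 named genes in 2 genotypes), 5 had 1 array far from the other 3 by Dixon's ratio of gap to range (above the 95% critical value). Chance flags about 1 in 20 such groups. All 5 were control groups, and 0 concerned the 10 peptide genes. Pcsk6 was low in control 2 (5.75, against 6.03 to 6.05 in the other controls, ratio 0.938), and Cadps2 was high in control 3 (7.40, against 7.16 to 7.20, ratio 0.832). Ldb2 was low in control 1 (8.29, against 9.58 to 9.74, ratio 0.889), as was Prox1 (6.57, against 6.69 to 6.72, ratio 0.837). Cux1, a homeobox gene of upper layers, was high in control 3 (9.73, against 9.65 to 9.66, ratio 0.894).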

How the results depend on the processing

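No result changed direction while called. Of 432 alternative values of the main results, 399 kept their side of the threshold or, for counts, stayed within 1.5 times. The rises and falls over all genes numbered 470 and 357, against 243 and 204 at an adjusted p under 0.01 and 123 and 126 without variance moderation. Members that fell numbered 1 at an adjusted p under 0.01, 0 without moderation, and 1 to 3 with each array left out. Without moderation the differences of Npy (-1.63, adjusted p = 0.0989) and Adcyap1 (-0.44, adjusted p = 0.164) no longer passed, nor did that of Adcyap1 relative to the GABAergic markers (-0.25). With sex as a covariate the relative difference of Adcyap1 (-0.23) also no longer passed. Upward differences on that scale crossed the threshold for Crh without moderation (0.41) and for Vip with sex (0.30), and are not read. With each array left out, Adcyap1 ranged from -0.52 to -0.38 and Sst from -0.46 to -0.17. The relative differences ranged from -0.32 to -0.20 for Adcyap1, -0.232 to 0.0161 for Sst, 0.18 to 0.26 for Penk, 0.0549 to 0.23 for Pdyn and 0.0516 to 0.305 for Cck, and Npy minus Sst from -1.68 to -1.0. The cause of these changes was not tested. The labels do not say what same-numbered arrays had in common, so a shared litter or batch is not known. Correlations of their deviations ran from 0.0558 to 0.295, and 6 of 8 arrays were closest to their own number. With the replicate block 565 genes rose and 422 fell, 1 and 2 of them members, and Npy kept its difference of -1.63 (adjusted p = 1.65e-05). The block lost or gained no call among the 10 genes. In the list of the medial eminence it gave 3 lower and 1 higher, against 1 and 0. Both filters on dim genes left out Tac1 and Crh, and the stricter also Penk and Pdyn, which then had no value. Counts for other precursors, processing, receptors and interneurons were run under the same alternatives, except the threshold of 0.01, after seeing the data. So were the genes of those lists called with all 8 arrays, with Bcl11a and Bcl6. Of these values 408 of 484 were the same by these rules. The striatal, upper-layer, deep-layer, subplate, glial and vascular lists and their genes were not part of these runs.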

Other observations

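Nos1, the neuronal nitric oxide synthase of a class of interneurons that also make neuropeptide Y and somatostatin, read 8.19 to 8.55 in the controls and 8.49 to 8.85 in the mutants (difference 0.31, adjusted p = 0.113, limma). Its groups overlapped, and without control 1 the difference was 0.23 (adjusted p = 0.222). Chodl, a marker of that class, was below the floor on every array. Calb2, which encodes calretinin, read 5.38, 6.72, 6.87 and 7.06 in controls 1 to 4 and 7.23 to 7.61 in the mutants, with control 1 the lowest array, as it was for Sst, Grp and Scg2. Neither Nos1 nor Calb2 passed with all 8 arrays. Both genes were named after their values had been seen.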
